A study of Homo sapiens with 6 samples.

Results

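The nuclear subunit genes of the respiratory chain and ATP synthase (complexes I to V) were followed after knockdown of N6AMT1 in human breast cancer cells that carry the label MDA-MB-453. Members were protein-coding genes chosen by symbol, namely NDUFA, NDUFB, NDUFC, NDUFS and NDUFV followed by a number, NDUFAB1, SDHA to SDHD, and genes beginning UQCR, COX4 to COX8, ATP5F1, ATP5M or ATP5P. Of the 62438 genes in the table, 89 met this rule. NDUFC2-KCTD14 and ATP5MF-PTCD1 are readthrough loci and were kept apart, which left 87 subunit genes. Of these, 38 belong to complex I, 4 to complex II, 9 to complex III, 18 to complex IV and 18 to complex V. NDUFA4 was counted with complex IV, to which it is now assigned, and NDUFA4L2 with complex I by its name.

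RNA-seq was performed on 3 libraries transfected with an siRNA against N6AMT1 (si-N6AMT1), a methyltransferase that the study examined as a writer of 6mA in DNA, and on 3 libraries transfected with a scrambled siRNA (si-CN, labelled as control). Both groups received 10 nM siRNA by lipid transfection for 48 h. The libraries come from 1 line and the labels speak of triplicate cells without stating whether these were separate cultures, so p-values measure only the spread between libraries, which may be technical. The comparison asked which transcripts differed when N6AMT1 was reduced.

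N6AMT1 itself was at 3.07, 3.52 and 2.92 CPM (counts scaled to library size, with TMM factors) in si-N6AMT1 libraries 1 to 3 and at 6.91, 6.84 and 6.63 in si-CN libraries. The groups did not overlap and its log2 fold change was -1.10 (SE 0.119, FDR = 3.65e-07, edgeR quasi-likelihood test with Benjamini-Hochberg adjustment). Library totals ran from 19739247 to 21289740 estimated counts. Marker levels went against the labelled line in part, over lists of 9 genes taken as present and 8 of other types, of which 7 were found in the table. Of the first list, the epithelial genes KRT8, KRT18 and EPCAM were at 598.6, 459.9 and 315.8 CPM in si-CN, XBP1 at 78.9 and ERBB2 at 53.6, whereas the luminal genes FOXA1, GATA3, KRT19 and SPDEF were at 8.40, 2.66, 0.498 and 0.217 CPM. Of the second list, the basal keratins KRT5 and KRT14 were at 766.6 and 110.4 CPM, VIM at 630.4 and COL1A1 at 45.7, while ESR1, PGR and PTPRC were at 0.316, 0.0157 and 0.115 CPM. After si-N6AMT1, KRT8, KRT18, KRT5 and KRT14 rose by 0.12, 0.08, 0.11 and 0.18 on the log2 scale and EPCAM fell by 0.12, while the other markers tested were not called. The part of these genes in the results was not tested. The cells are therefore named here only as labelled.

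Electrons from NADH enter the inner mitochondrial membrane at complex I and those from succinate at complex II, pass to complex III and then to complex IV, where oxygen is reduced. Complexes I, III and IV pump protons, and complex V uses the gradient to make ATP. Except for complex II, each complex joins subunits encoded in the nucleus with subunits encoded in mitochondrial DNA. Many nuclear subunit promoters are known to hold sites for NRF1, ETS factors such as GABPA, and YY1.

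Promoter windows of 300 bases around the transcript start were taken from RefSeq on GRCh38.p14 for 69 of the 87 genes, in 82 windows. They were searched on both strands for the NRF1 sequence GCGCATGC, the ETS sequence CCGGAAG and the YY1 sequence AAGATGGC, and no match of one overlapped a match of another. At least 1 of the 3 was present in 47.6% of subunit windows, against 14.9% of 35116 windows in the reference and 22.6% of the windows of tested genes. NRF1, ETS and YY1 sequences stood in 18.3%, 26.8% and 15.9% of subunit windows and in 764, 2690 and 738 of the 16852 windows of tested genes. The 4 windows below show each sequence in a gene described later, 3 from genes that rose (COX5B, ATP5PD, NDUFA3) and 1 from a gene that fell (UQCRH). Capitals mark the matches, which are descriptions of sequence and not of binding. The windows lie at chr2:97645812-97646111 (plus strand), chr17:75046920-75047219 (minus), chr19:54102605-54102904 (plus) and chr1:46303448-46303747 (plus), in the order printed, and are written 5′ to 3′ along the gene.
COX5B, NRF1 and ETS: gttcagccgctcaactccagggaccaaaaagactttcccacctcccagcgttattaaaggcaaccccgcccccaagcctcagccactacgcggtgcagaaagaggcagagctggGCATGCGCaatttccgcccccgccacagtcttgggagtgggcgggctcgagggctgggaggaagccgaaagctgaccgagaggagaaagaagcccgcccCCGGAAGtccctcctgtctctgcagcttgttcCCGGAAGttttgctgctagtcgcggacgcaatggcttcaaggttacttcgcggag
ATP5PD, ETS: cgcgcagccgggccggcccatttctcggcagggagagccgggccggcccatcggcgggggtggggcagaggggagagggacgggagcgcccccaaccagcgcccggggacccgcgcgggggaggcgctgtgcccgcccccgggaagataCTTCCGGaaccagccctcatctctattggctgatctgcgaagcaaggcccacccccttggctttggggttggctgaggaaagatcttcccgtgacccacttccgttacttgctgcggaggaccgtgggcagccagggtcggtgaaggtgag
NDUFA3, YY1: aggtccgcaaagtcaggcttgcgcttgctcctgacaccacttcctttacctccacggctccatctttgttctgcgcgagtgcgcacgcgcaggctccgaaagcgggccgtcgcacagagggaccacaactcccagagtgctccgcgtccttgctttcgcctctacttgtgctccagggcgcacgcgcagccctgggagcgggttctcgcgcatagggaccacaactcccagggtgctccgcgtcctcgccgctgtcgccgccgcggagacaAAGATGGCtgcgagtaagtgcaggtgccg
UQCRH, ETS: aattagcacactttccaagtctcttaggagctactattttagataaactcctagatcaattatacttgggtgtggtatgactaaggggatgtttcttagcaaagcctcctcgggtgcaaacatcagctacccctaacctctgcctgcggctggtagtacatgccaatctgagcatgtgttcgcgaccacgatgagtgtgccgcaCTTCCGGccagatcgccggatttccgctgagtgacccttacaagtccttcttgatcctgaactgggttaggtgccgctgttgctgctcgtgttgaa
Called subunits on both sides held these sequences. At least 1 was found in 9 of 18 windows of subunits called higher and in 4 of 6 windows of subunits called lower. These windows cover 15 of the 21 genes called higher and the 4 called lower, and some genes have several windows.

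Of the 87 subunit genes, 80 passed the filter on low counts and were tested. After si-N6AMT1, 21 were higher (26.2% of those tested, against 9.78% of all 17320 genes tested) and 4 were lower (5.0%, against 11.5% of all genes), at an FDR under 0.05. The other 55 subunits did not pass the test. Members were protein-coding, and of the 13362 tested protein-coding genes 11.5% were higher and 14.4% lower. Over the 80 genes the log2 fold changes had a median of 0.07, against 0.00 for all genes tested, and 76.2% of the subunits had a positive value against 50.9% of all genes. Differences were small, and the log2 values of tested subunits ran from -0.18 to 0.30, with NDUFA4L2, at 3.51 CPM in si-CN and not called, at the upper end. The 3 si-N6AMT1 and 3 si-CN libraries did not overlap for 29 of the 80 subunits (36.2%), a share near the 34.9% found over all genes tested. Of the 25 called subunits, 17 that rose and all 4 that fell had groups that did not overlap, while ATP5MK, ATP5PO, NDUFS3 and UQCRQ rose with overlapping groups. Calls and overlap rest on the same libraries, so this count is no separate support. The share over all called genes is not given here.

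**Figure D1:**
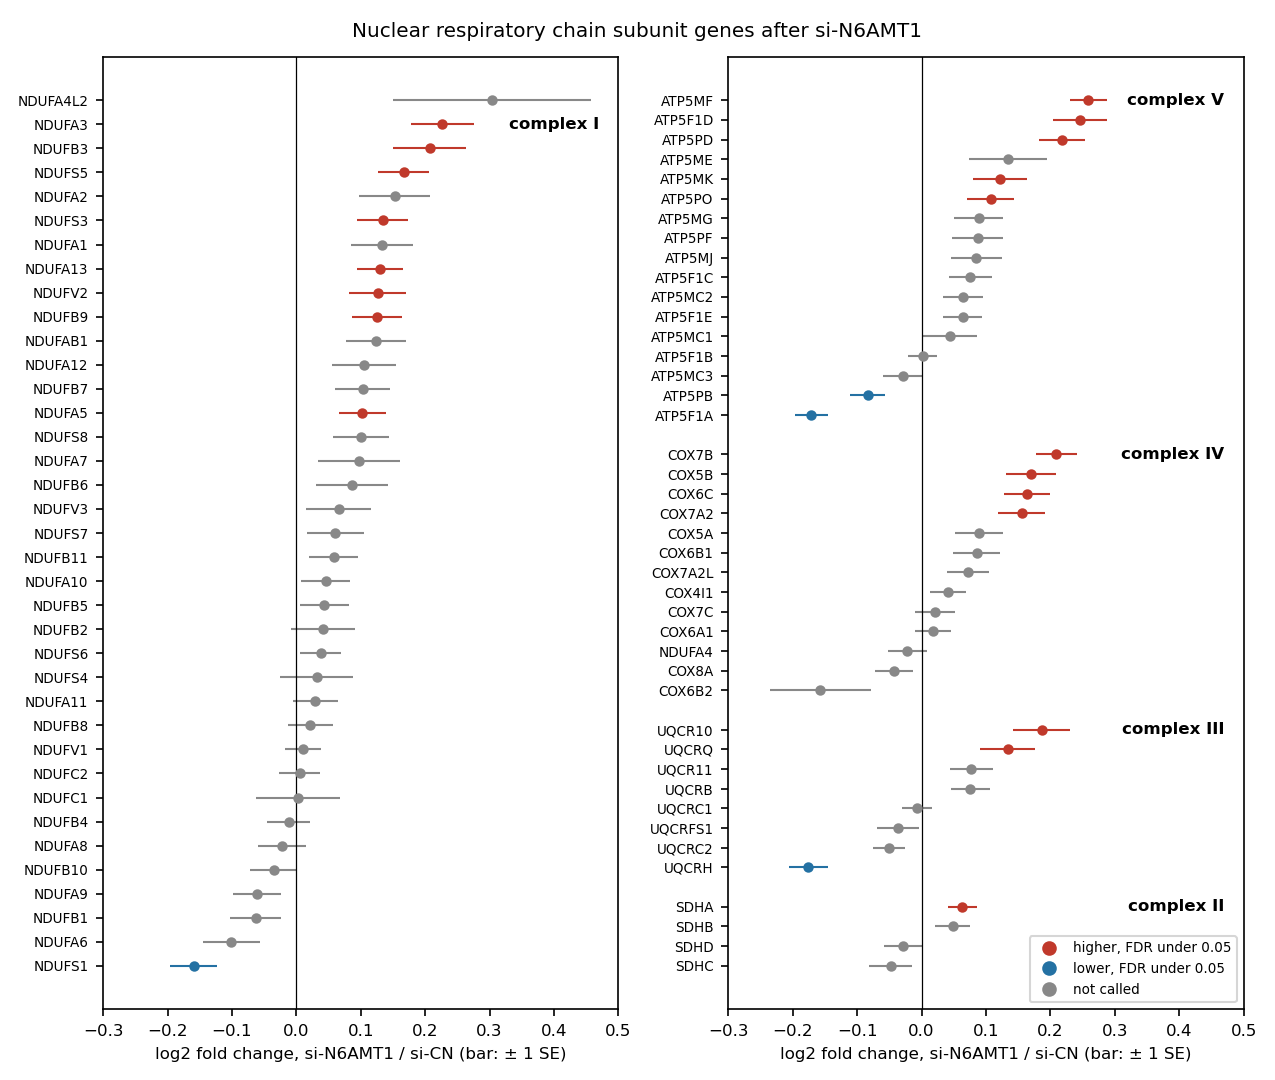
Each point is 1 tested nuclear subunit gene (1 gene is not shown), with its log2 fold change of si-N6AMT1 over si-CN (3 libraries each) on the x axis and a bar of 1 SE to each side. Red points were called higher and blue points lower at an FDR under 0.05, and complexes are set apart on the y axis; most points lie right of 0, and the blue points are NDUFS1, UQCRH, ATP5F1A and ATP5PB.

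The number called higher depended on single libraries and on the test. It was 12 without si-N6AMT1 library 2, 13 without si-N6AMT1 library 3 and 12 without si-CN library 3, and DESeq2 called 9. The 11 genes whose call held in every one of 17 alternative settings were NDUFA3, NDUFS5, UQCRH, COX5B, COX6C, COX7A2, COX7B, ATP5F1A, ATP5F1D, ATP5MF and ATP5PD.

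In complex I, 9 of 38 tested genes rose and 1 fell, and the median was 0.06 on the log2 scale. The enzyme has a hydrophilic arm of core subunits that carry electrons and a surrounding set of accessory subunits. Among the 31 genes counted as accessory subunits, with NDUFA4L2 placed there by its name only, 6 rose and none fell. NDUFS1, the largest core subunit, which holds iron-sulfur clusters, fell. It lies at chr2:206979541-207024233 on GRCh37 (minus strand) and was at 64.2, 60.4 and 62.8 CPM in si-N6AMT1 libraries 1 to 3, against 71.9, 70.2 and 67.3 in si-CN. Every si-N6AMT1 library was below every si-CN library, and the log2 fold change was -0.16 (SE 0.036, FDR = 0.00243, edgeR quasi-likelihood test with Benjamini-Hochberg adjustment). A correction for GC content and transcript length, together with a replicate block, ended this call (FDR = 0.136).

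The core subunits NDUFS3, part of the module that reduces ubiquinone, and NDUFV2, which holds an iron-sulfur cluster beside the NADH site, rose. NDUFV2 was at 44.4, 42.9 and 43.5 CPM in si-N6AMT1 against 39.2, 42.7 and 38.0 in si-CN, so that si-CN library 2 nearly reached the si-N6AMT1 libraries. Its log2 fold change of 0.13 had an FDR of 0.0486 (edgeR quasi-likelihood test), and the call was lost in 11 of 17 alternative settings. NDUFS3 rose by 0.13 (FDR = 0.0161) with overlapping groups, a call lost in 6 settings. The core subunits NDUFV1, which binds NADH, and NDUFS7 had log2 values of 0.01 and 0.06 and were not called.

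Among the accessory subunits, 6 rose. NDUFA3 (chr19:54606036-54612564, GRCh37, plus strand), a small membrane subunit, was at 35.5, 36.6 and 34.6 CPM in si-N6AMT1 and at 31.0, 32.0 and 28.4 in si-CN. All 3 knockdown libraries were above the control libraries, with a log2 fold change of 0.23 (SE 0.049, FDR = 0.00166, edgeR quasi-likelihood test). NDUFS5, named with the NDUFS series although it is an accessory subunit, was at 61.3, 64.9 and 68.0 CPM against 59.8, 57.2 and 56.2, a log2 fold change of 0.17 (SE 0.040, FDR = 0.00373). Si-N6AMT1 library 1 was the closest to the controls for this gene.

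NDUFB3, a subunit of the membrane arm, was at 30.1, 36.1 and 33.5 CPM in si-N6AMT1 and at 28.3, 28.6 and 29.5 in si-CN. Its libraries were more spread within si-N6AMT1 than within si-CN, and the log2 fold change was 0.21 (SE 0.056, FDR = 0.00993, edgeR quasi-likelihood test). NDUFA13, NDUFB9 and NDUFA5 rose by 0.13, 0.13 and 0.10 on the log2 scale, and lost their calls in 4, 8 and 9 of 17 alternative settings. With the GC and length correction and a replicate block, NDUFA13 was at 0.04 (FDR = 0.546). The 28 genes of complex I that were not called ran from -0.10 to 0.30, among them NDUFA2 at 0.15 (FDR = 0.0522) and NDUFA1 at 0.13 (FDR = 0.0533), just past the threshold, and NDUFA6 at -0.10 (FDR = 0.116). NDUFS6, the highest subunit of complex I per length in si-CN at 448.4 TPM (280.3 TPM with the median length of its protein-coding transcripts), had a log2 value of 0.04 (FDR = 0.466). The readthrough locus NDUFC2-KCTD14 was at -0.55 (SE 0.201, FDR = 0.0542), with 43 to 83 counts a library, and NDUFC2 itself at 0.01.

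Complex II, the succinate dehydrogenase that also works in the citric acid cycle, had log2 values between -0.05 and 0.06 in its 4 subunits. SDHA, the flavoprotein that oxidizes succinate, was at 286.2, 294.0 and 292.4 CPM in si-N6AMT1 and at 274.7, 280.8 and 279.8 in si-CN. The groups did not overlap, and the log2 fold change of 0.06 (SE 0.022) just passed the test (FDR = 0.0486, edgeR quasi-likelihood test). That call was lost in 12 of 17 alternative settings. The iron-sulfur subunit SDHB was at 0.05 and the membrane anchors SDHC and SDHD at -0.05 and -0.03, none called, and the complex median was 0.01.

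Complex III passes electrons from ubiquinol to cytochrome c. UQCRH, the hinge subunit that contacts cytochrome c1, fell. It lies at chr1:46769370-46782448 on GRCh37 (plus strand) and was at 116.1, 124.5 and 127.0 CPM in si-N6AMT1 and at 141.0, 137.2 and 137.1 in si-CN. The highest si-N6AMT1 library was below the lowest si-CN library, and the log2 fold change was -0.18 (SE 0.031, FDR = 0.00017, edgeR quasi-likelihood test), the lowest value of the 80 tested subunits. Its near copy UQCRHL had only 39 counts over the 6 libraries and was not tested.

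The small subunits UQCR10 and UQCRQ rose. UQCR10 was at 42.9, 45.5 and 42.6 CPM in si-N6AMT1 and at 38.0, 40.4 and 36.8 in si-CN, without overlap, with a log2 fold change of 0.19 (SE 0.045, FDR = 0.00376, edgeR quasi-likelihood test). UQCRQ rose by 0.13 (FDR = 0.0262) with overlapping groups, a call lost in 5 of 17 settings. The core proteins UQCRC1 and UQCRC2 and the Rieske iron-sulfur protein UQCRFS1 had log2 values of -0.01, -0.05 and -0.04 and were not called, although the libraries of UQCRC2 and UQCRFS1 did not overlap between groups. The 5 genes not called ran from -0.05 to 0.08, and the median of the 8 tested genes was 0.03.

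Complex IV, cytochrome c oxidase, had 4 of 13 tested genes higher and none lower, with a median of 0.07. All 4 calls held in the 17 alternative settings. None of the 4 had overlapping groups, which is no support apart from the calls. COX7B (chrX:77154937-77162873, GRCh37, plus strand), a small membrane subunit, was at 261.4, 284.8 and 266.1 CPM in si-N6AMT1 and at 246.9, 231.4 and 224.6 in si-CN. Si-CN library 1 was the nearest to the knockdown libraries, and the log2 fold change was 0.21 (SE 0.032, FDR = 4.18e-05, edgeR quasi-likelihood test).

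COX5B (chr2:98262525-98264846, GRCh37, plus strand), the zinc-binding subunit whose promoter is printed above, was at 59.1, 64.6 and 63.9 CPM in si-N6AMT1 and at 55.5, 54.4 and 56.8 in si-CN. The log2 fold change was 0.17 (SE 0.039, FDR = 0.00248, edgeR quasi-likelihood test). COX6C was at 133.1, 146.9 and 145.1 CPM against 132.6, 120.6 and 126.4, so that the replicates numbered 1 nearly met, and rose by 0.16 (SE 0.036, FDR = 0.00159). COX7A2, the widely expressed form of subunit 7A, rose by 0.16 (SE 0.036, FDR = 0.00319), from 104.9, 108.8 and 99.0 CPM in si-CN to 110.8, 122.5 and 114.5.

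Several complex IV subunits have tissue-restricted forms, and these were nearly silent. COX4I2, COX6A2, COX7A1, COX7B2 and COX8C had 1, 0, 5, 1 and 4 counts over all 6 libraries and were not tested. Of their widely expressed partners, COX7A2 and COX7B rose, as given above. COX4I1, COX6A1 and COX8A were at 189.9, 211.9 and 200.2 CPM in si-CN. Their log2 values were 0.04, 0.02 and -0.04, none called. COX8A was the highest subunit of the complex per length, at 903.2 TPM (582.0 with the median transcript length). COX6B2, a form known from testis, was detected at 14.3 CPM, with a log2 value of -0.16 (FDR = 0.173), beside 0.09 for COX6B1. NDUFA4, and COX7A2L, known for its place in supercomplexes, had log2 values of -0.02 and 0.07. The 9 genes of the complex that were not called ran from -0.16 to 0.09.

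In complex V, the ATP synthase, 5 of 17 tested genes rose and 2 fell, with a median of 0.09. The catalytic head gave different values for its main subunits. ATP5F1A, the alpha subunit, lies at chr18:43660214-43684300 on GRCh37 (minus strand) and was at 191.2, 199.9 and 192.1 CPM in si-N6AMT1, against 225.0, 218.2 and 213.6 in si-CN. No library overlapped, and the log2 fold change was -0.17 (SE 0.026, FDR = 3.64e-05, edgeR quasi-likelihood test). ATP5F1B, the catalytic beta subunit and the member with the highest CPM (570.2 in si-CN), had a log2 value of 0.00 (SE 0.022, FDR = 0.965).

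ATP5F1D, the delta subunit of the central stalk (chr19:1241745-1244824, GRCh37, plus strand), was at 45.3, 46.0 and 43.7 CPM in si-N6AMT1 and at 36.9, 37.6 and 39.4 in si-CN. The groups were well apart and the gene rose by 0.25 (SE 0.042, FDR = 0.000147, edgeR quasi-likelihood test). Within the head and central stalk 1 of 5 subunits rose, 1 fell and 3 were not called.

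The peripheral stalk, which holds the head still, also had calls in both directions. ATP5PD (chr17:73034958-73043080, GRCh37, minus strand) was at 83.4, 89.6 and 89.1 CPM in si-N6AMT1 and at 77.5, 76.0 and 71.9 in si-CN, and rose by 0.22 (SE 0.036, FDR = 8.48e-05, edgeR quasi-likelihood test). ATP5PB, the b subunit, was at 137.6, 142.2 and 141.4 CPM against 152.4, 143.7 and 150.2, and fell by 0.08 on the log2 scale (SE 0.028, FDR = 0.033), with si-CN library 2 close to the knockdown libraries. That call was lost in 10 of 17 alternative settings. ATP5PO, which joins the stalk to the head, rose by 0.11 (FDR = 0.0418) with overlapping groups, a call lost in 9 settings.

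Among the membrane subunits, ATP5MF, the f subunit, had the smallest FDR of all members. It lies at chr7:99046098-99063809 on GRCh37 (minus strand) and was at 109.8, 111.3 and 110.5 CPM in si-N6AMT1 and at 93.6, 93.9 and 89.9 in si-CN. Libraries were tight within each group, and the log2 fold change was 0.26 (SE 0.029, FDR = 4.95e-07, edgeR quasi-likelihood test). The readthrough locus ATP5MF-PTCD1, which shares sequence with it, had counts equal to 4.17% of those of ATP5MF and a log2 value of 0.16 (FDR = 0.444). ATP5MK rose by 0.12 (FDR = 0.0421) with overlapping groups, a call lost in 8 of 17 settings. The 3 genes of the c ring, ATP5MC1, ATP5MC2 and ATP5MC3, which encode the same mature protein, had log2 values of 0.04, 0.06 and -0.03 and were not called. ATP5MG was at 0.09 (FDR = 0.109), while ATP5MGL had 5 counts in all and was not tested. The 10 genes of complex V that were not called ran from -0.03 to 0.13.

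Counts of the members were summed to give the share of each complex in a library. All 87 subunits took 0.764% ± 0.0139 (SD, n = 3) of counts in si-N6AMT1 and 0.736% ± 0.0124 in si-CN, a ratio of 1.04, with overlapping groups. The ratio was 1.044 for complex I and 1.028 for complex II, where the groups did not overlap, and 1.007, 1.059 and 1.033 for complexes III, IV and V, where they did. Scaled per length to TPM, the overlap turned for several of these. The groups no longer overlapped for all subunits (ratio 1.037) and complex V (1.064), and they overlapped for complex II (1.011). The complex III sum was lower, at a ratio of 0.968 without overlap. These sums depend on the reference transcripts. UQCRH, which fell, was 574.7 of the 1580.9 TPM of complex III in si-CN. UQCRB was at 48.6 TPM in si-CN, against 410.4 with the median transcript length, and ATP5F1A at 84.7 against 345.6. Sums with median lengths were not made. The totals also hold the mitochondrially encoded genes, at 3.01% of counts in si-N6AMT1 and 3.72% in si-CN (60107 and 75391 TPM). A smaller share of these genes raises the share of all others, and sums with them left out were not made. In bulk RNA, fewer cells and less RNA per cell cannot be told apart.

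The libraries numbered 1 of both groups lay next to each other. The median log2 difference of the 80 subunits from the si-CN mean was 0.03, 0.08 and 0.08 in si-N6AMT1 libraries 1 to 3 and 0.02, -0.01 and -0.02 in si-CN libraries. In complex IV, si-CN library 1 (0.06) was above si-N6AMT1 library 1 (0.02), and in complex V the order was the same, at 0.04 and 0.02. The number of subunits called higher was 28 without si-CN library 1 and 29 without si-N6AMT1 library 1.

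Transcript length moved with the direction of change over the whole table. Of 782 tested protein-coding genes with a reference transcript under 1000 bases, 22.1% rose and 4.86% fell, against 10.8% and 15.0% of 12580 genes of 1000 bases or more. Subunit genes are mostly short, with a median reference transcript of 783.5 bases against 3328 for tested protein-coding genes. Of the 47 subunits under 1000 bases, 16 rose (34.0%) and 1 fell, and of the 33 longer subunits 5 rose (15.2%) and 3 fell. Length here is that of 1 reference transcript a gene, such as 8459 bases for UQCRB. Which forms these cells used was not tested. The medians were 0.10 and 0.04 for the subunits and 0.06 and -0.0043 for all protein-coding genes in the same classes. With the correction for GC content and length, and a replicate block, 17 subunits were higher and 5 lower, and the medians of complexes I and IV were 0.02 and 0.02. The part of length in the subunit result was not tested.

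The 7-base sequences TTCACAT and TCACATA, which overlap by 6 bases, were searched in the 3′ UTR of each reference transcript, since earlier results of these data had tied them to lower expression. They are therefore no independent support here. A site was present in 10 of the 80 tested subunits (12.5%), against 22.2% of 13301 tested protein-coding genes, and subunit 3′ UTRs were short (median 198 bases against 1322). Of the 4 subunits that fell, UQCRH, ATP5F1A and NDUFS1 held a site and ATP5PB did not. Of the 21 that rose only NDUFA5 held one, as did 6 of the 55 not called. The 3 of 10 subunits with a site that fell are near the share over all tested protein-coding genes, where 28.4% of 2958 genes with a site fell, against 10.3% of those without. The sites of the 3 genes that fell and of NDUFA5 are printed 5′ to 3′ along the transcript from GRCh37, with the 7 bases in capitals, because they show the match in its context. They lie at chr1:46782350-46782373 (plus strand), chr18:43664221-43664244 (minus), chr2:206984726-206984749 (minus) and chr7:123180066-123180089 (minus), in the order printed.
UQCRH: actgtaagTTCACATgaacctcat
ATP5F1A: cctgtggaTTCACATcaaatacca
NDUFS1: aaccaaatTTCACATgaactaaga
NDUFA5: atccaaggTCACATAgctagtaag
Among the 10 subunits with a site the median was -0.05 on the log2 scale, with 7 negative values, and among the 70 without one it was 0.08. Over all tested protein-coding genes the medians were -0.06 with a site and 0.02 without. The reference 3′ UTRs of ATP5F1A (4034 bases) and NDUFS1 (9368 bases) are long, and whether these cells used those forms was not tested. In UQCRH the site lies in a 3′ UTR of 192 bases.

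The subunits of the same complexes that are encoded in mitochondrial DNA had lower values. Of these 13 genes 12 fell, and their log2 values had a median of -0.36. By complex the medians were -0.21 in complex I, -0.38 in complex IV and -0.55 in complex V, where the nuclear medians were 0.06, 0.07 and 0.09. MT-CYB, the single mitochondrially encoded subunit of complex III, was at -0.50.

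**Figure D2:**
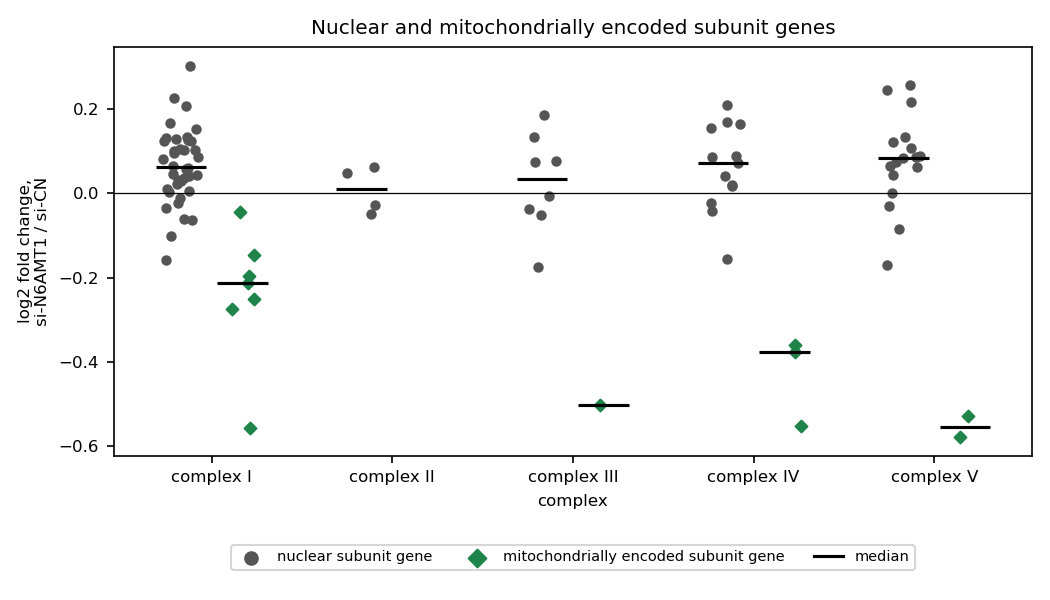
Log2 fold change of si-N6AMT1 over si-CN (y axis) for nuclear subunit genes (grey circles) and mitochondrially encoded subunit genes (green diamonds) of each complex (x axis), with black lines for medians. Complex II has no mitochondrially encoded subunit; the diamonds lie below 0 in the other 4 complexes.

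Factors that assemble the complexes were read from a separate list. Of 56 assembly factors tested, 5 rose, none fell and 51 were not called. These counts are to be read beside the 9.78% higher and 11.5% lower of all genes tested. The 5 were ECSIT and COA1, which act on complex I, and SCO2, COX16 and PET100, which act on complex IV. PET100 was at 13.8, 13.8 and 14.5 CPM in si-N6AMT1 and at 10.8, 10.9 and 12.3 in si-CN, a log2 fold change of 0.31 (SE 0.076, FDR = 0.00462, edgeR quasi-likelihood test). Of 6 partners outside the naming rule, HIGD2A rose by 0.18, while cytochrome c (CYCS) fell by 0.10 and HIGD1A fell by 0.12. Cytochrome c1 (CYC1), the partner of UQCRH in complex III, falls outside the naming rule, so the complex III counts leave it out. CYC1 had a log2 value of 0.09 (FDR = 0.0783).

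A list of 10 regulators held factors known to act on nuclear subunit genes, and TFAM, which acts on mitochondrial DNA. Of these 10, 1 rose and 2 fell, to be read beside the 9.78% higher and 11.5% lower of all genes tested. ESRRA, a nuclear receptor that drives subunit genes, rose by 0.28 (SE 0.038, FDR = 1.04e-05, edgeR quasi-likelihood test), from 52.1, 51.9 and 48.0 CPM in si-CN to 61.7, 60.8 and 61.3. TFAM, which packages and transcribes mitochondrial DNA, was at 57.3, 54.8 and 53.8 CPM against 77.9, 78.4 and 77.1 and fell by 0.49 (SE 0.034, FDR = 3.68e-10). YY1 fell by 0.15 (FDR = 5.32e-05). NRF1 and GABPA, whose sequences were searched in the promoters, had log2 values of 0.08 and -0.05 and were not called.

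Counts of near-identical copies and overlapping genes carry a further uncertainty. The table holds 189 pseudogenes named for these families, whose counts came to 0.736% of those of the subunits. Of the 87 loci, 36 overlap a gene on the opposite strand, including ATP5MF, ATP5PD, NDUFA3 and COX6C, and the strand setting used in counting was not given in the sources used here.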

How the data were processed

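RNA was sequenced from 3 si-N6AMT1 and 3 si-CN libraries made with a stranded mRNA kit. The authors used Trim Galore for trimming and kallisto v0.46.0 with GENCODE on hg19 to estimate transcript abundance, and added up the transcripts of a gene. The deposited values are estimated counts (expected counts) in whole numbers for 62438 genes, not normalized. Samples were matched to columns by name.

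The main test was the quasi-likelihood test of edgeR v4.0.16 (R v4.3.3) on all 6 libraries with no covariate, after its expression filter at a minimum count of 10 (17320 genes) and TMM scaling. FDR denotes p adjusted by the Benjamini-Hochberg method across those genes, and calls were made under 0.05. TPM values use the length of the reference transcript in GENCODE v44 on GRCh37, so that levels per length depend on that transcript. For this comparison, simulation with 200 of 17320 genes changed 1.2-fold gave 83% of them back, and 2.35% of calls were false. The changed genes were drawn from genes above a CPM floor, and all genes had the same dispersion. Every called subunit changed less than 1.2-fold, so these rates do not give the power or error for the subunits. In a chi-square comparison of counts, the statistic divided by its degrees of freedom was 1.352 to 1.686 for pairs within groups, above sampling noise, and 6.074 to 6.856 between groups.

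Named genes are N6AMT1, called members whose libraries did not overlap (up to 6 a direction in each complex), the member with the highest TPM in each complex, core subunits, close paralogs and members not tested. NDUFA1, NDUFA2, NDUFA6, NDUFC2, SDHC, SDHD, UQCRQ, ATP5PO, ATP5MK, the readthrough loci and the named assembly factors, partners, regulators and mitochondrially encoded subunits were added after their values were seen. The members and lists were chosen with earlier results of these data known. Alternatives were RLE and upper-quartile factors, mitochondrial genes or the members left out of scaling, no filter, DESeq2 v1.42.0 on all genes or on those of at least 1 TPM, limma-voom (limma v3.58.1), a replicate block alone or with GC and length correction, NDUFA4 counted with complex I, and each library left out in turn. A subunit gene is counted but not reported by name here. The authors' 6mA data were not analysed here.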

Additional observations from a re-analysis of the deposited data

How the results depend on the processing

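The 21 subunits called higher became 9 with DESeq2 and 11 with DESeq2 on genes of at least 1 TPM. Leaving out each library in turn gave 12 to 29 higher (12 without si-N6AMT1 library 2 or si-CN library 3, and 13 without si-N6AMT1 library 3) and 3 to 5 lower. The cause was not tested. The median of complex II, 0.01, ran from -0.005304 to 0.02742 with each library left out, and was -0.005304 without si-N6AMT1 library 3 and -0.004208 without si-CN library 2. It was 0.03072 with a replicate block and GC correction. With a replicate block and GC and length correction, the medians were 0.02229 for complex I and 0.02482 for complex IV. On the TPM scale, with reference transcript lengths, the ratio of shares was 1.011 for complex II, 0.9679 for complex III and 1.064 for complex V.

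Libraries with the same replicate number did not deviate together (correlations -0.0381, -0.0422 and 0.00997), so the numbers were not taken as pairs. The replicate block gave 17 subunits higher and 3 lower, and the log2 fold change of N6AMT1 was -1.10. Of the 25 called subunits, 11 kept their call in all 17 settings, 14 lost it in at least 1 and none changed sign. An estimated count of low genes such as NDUFA4L2 carries a wide error at this depth.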
